A study of Mus musculus with 32 samples.

Results

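The genes described here were 10 mouse complement genes. C1qa, C1qb and C1qc encode the chains of C1q, and C2, C3 and C4b encode complement components. Cfb encodes factor B, C3ar1 and C5ar1 encode anaphylatoxin receptors, and Serping1 encodes C1 inhibitor. Members were taken by the gene name that the array files give for each probe. Of 55681 probes on the array, 12 carried 1 of these names, with 2 probes each for C3 and Serping1. All 10 genes were among the 15269 genes that entered the test, and the brightest probe stood for a gene. The filter kept probes well above background on at least 50% of the 32 arrays. Of the probes used, that of Cfb was above background on 29 arrays and that of C4b on 28. Levels are log2 intensities after quantile normalization, and changes are log2 differences of group means with the standard error (SE) of the fit. A gene was called higher or lower at an adjusted p below 0.05 by limma, over all genes tested.

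Bone marrow-derived macrophages (BMDMs), which are macrophages grown from marrow precursors with M-CSF, came from C57BL/6 wild type (WT) or Ifnar1-/- animals. Ifnar1-/- cells are without a chain of the type I interferon (IFN) receptor. Each genotype had 8 treatments of 6 h, which were none, zVAD, and LPS or IFNβ alone, with zVAD, or with zVAD and Nec-1. LPS activates TLR4, whereas Nec-1 blocks RipK1, a kinase of the necroptosis pathway, and zVAD blocks caspases. The study used LPS or IFNβ with zVAD to stimulate necroptosis, a lytic form of cell death, and asked how this changed inflammatory gene expression with and without IFN signalling. The labels put the dose of LPS at 100 ng/mL and that of IFNβ at 1000 U/mL. The study's methods give other doses, so the doses are not settled here. The age and sex of the mice and the doses of zVAD and Nec-1 are not given in the labels. Each of the 16 groups held 2 arrays, which nothing in the sources used here ties to separate animals or cultures, so p-values measure the spread between these arrays and that spread may be technical.

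The 32 arrays lay on 4 slides, each with 1 replicate of all 8 treatments in 1 genotype. A change with treatment was thus measured within slides, whereas the genotypes in any treatment cannot be told apart from the slides. The array labelled Ifnar1-/- LPS + zVAD + Nec-1 replicate 2 went against its label: its median absolute log2 difference from the other replicate was 0.509, against 0.202 to 0.381 in the other 15 groups, and the array nearest to it was replicate 2 of Ifnar1-/- IFNβ + zVAD + Nec-1, at 0.116. Of 3 Ifnar1 probes, 2 separated the genotypes without overlap (7.88 to 10.23 in WT and 5.82 to 7.35 in Ifnar1-/-, then 9.94 to 11.88 and 7.29 to 8.73) and the brightest did not (9.02 to 14.76 and 11.16 to 12.44), and which of them lies in the deleted part is not known here. All 8 macrophage markers were well above background on all arrays. The log2 of the summed intensities of 8 neutrophil markers was higher in Ifnar1-/- (15.66 to 16.83) than in WT (13.49 to 15.56), as was that of 4 stromal markers (10.82 to 12.58 against 8.645 to 10.31). Such a sum is set mostly by its brightest markers. Mast cell marker sums were lower in Ifnar1-/- (8.296 to 8.776 against 8.799 to 9.583), and those of T cell, B cell and dendritic cell markers overlapped. The markers of a list did not all move with its sum. In untreated Ifnar1-/- cells against WT, 1 of 8 neutrophil markers was called higher and 1 lower. Of 3 stromal markers tested 2 were called higher and 0 lower, and of 2 mast cell markers tested 1 higher and 0 lower. With LPS + zVAD, 4 neutrophil markers were called higher and 1 lower. In WT the T cell sum also moved with treatment, from 10.39 and 11.27 untreated to 12.56 and 12.76 with LPS and 12.94 and 14.15 with IFNβ, while of the T cell markers Cd3d and Cd3g were above background on 4 and 3 arrays. Among the stromal markers Pdgfra was above background on 0 arrays. The part of these cells in the differences given below was not tested, and in bulk RNA fewer cells of a type cannot be told apart from less RNA per cell.

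Complement is a cascade of plasma proteins that tags microbes and dying cells. C1q recognises bound antibody and damaged surfaces and starts the classical pathway, in which C4 and C2 form the enzyme that cleaves C3. Factor B forms the corresponding enzyme of the alternative pathway, which amplifies the deposition of C3. The small fragments C3a and C5a signal through C3ar1 and C5ar1, and C1 inhibitor blocks the proteases that C1q activates. Macrophages are a main source of C1q in tissues and also make C3 and factor B at sites of inflammation. The C1q genes lie next to each other in the genome, as do Cfb and C2, with C4b close by.

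Expression was read from probes of 60 bases. The probes of the C1q chains that fell with LPS or did not, and of the alternative pathway genes with the widest range, are printed to show what was measured, with their mm9 positions, all on the minus strand. The letters are those of the array design, 5′ to 3′, and no base is marked.
C1qa, chr4:136452409-136452468: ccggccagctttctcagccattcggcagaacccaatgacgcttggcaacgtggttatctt
C1qb, chr4:136436578-136436637: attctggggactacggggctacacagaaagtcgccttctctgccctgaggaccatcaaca
C3, chr17:57343678-57343737: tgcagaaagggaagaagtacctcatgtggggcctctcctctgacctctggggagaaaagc
Cfb, chr17:34993502-34993858: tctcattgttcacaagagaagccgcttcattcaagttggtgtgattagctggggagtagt
The Cfb probe matches positions spread over 357 bases, more than its own length, so it spans an intron and reads spliced RNA. The C3 sequence is that of its dimmer probe; the brighter one, whose values stand for C3 below, lay at chr17:57343416-57343475.

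In WT cells, LPS raised the genes of the activation steps. C2, C3, C4b, Cfb, C5ar1 and Serping1 rose, which is 6 of 10 genes where 16.7% of all genes tested rose, and C1qa and C1qc fell, 2 of 10 where 25.5% of all genes fell, a share no higher than the background, and neither fall passed with scaling to the 75th percentile (−0.19 and −0.04). C1qb did not pass (−0.28, adjusted p = 0.328). The median change of the 10 genes was 1.16 on the log2 scale, against −0.0851 over all genes. IFNβ raised 5 of the 10, namely C2, C3, C4b, Cfb and Serping1, where 14.0% of all genes rose, and lowered none, where 22.2% of all genes fell. The medians were 0.704 and −0.175. In Ifnar1-/- cells, LPS raised Cfb, C3, C5ar1 and Serping1, 4 of 10 against 11.5% of all genes, and lowered C1qa, C1qc and C3ar1, 3 of 10 against 14.5%. Here the median was 0.491, against −0.0551 over all genes. IFNβ changed none of the 10 in Ifnar1-/- cells by limma with Benjamini-Hochberg adjustment, and none had an unadjusted p under 0.05; 0% of all genes were called.

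**Figure D1:**
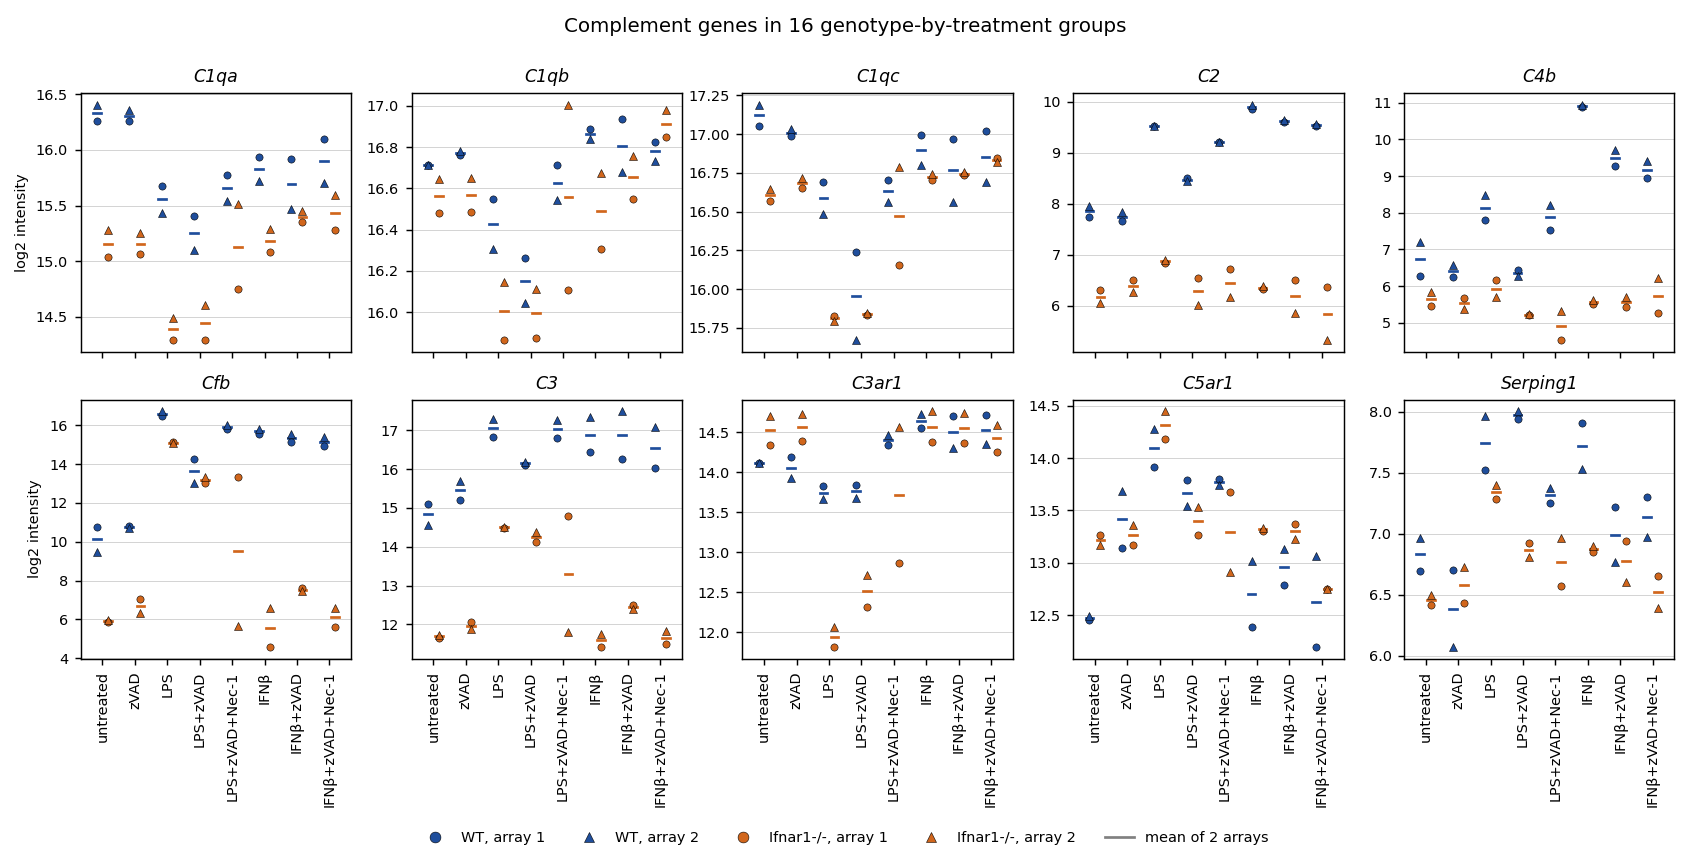
Log2 normalized intensity of the 10 complement genes on each of the 32 arrays, by treatment on the horizontal axis, with WT and Ifnar1-/- in different colours and a line at each group mean (n = 2 arrays). Cfb covers the widest range, from a mean of 5.57 to 16.58, and its IFNβ arrays lie at 15.55 and 15.82 in WT and at 4.58 and 6.57 in Ifnar1-/-.

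Cfb had the widest range of group means, 11.01 on the log2 scale. Its untreated WT arrays read 10.76 and 9.49, those with LPS 16.46 and 16.71, and those with IFNβ 15.55 and 15.82. In Ifnar1-/- cells the untreated arrays read 5.88 and 5.96, those with LPS 15.13 and 15.08, and those with IFNβ 4.58 and 6.57. The LPS arrays were thus far above the untreated ones in each genotype, and the IFNβ arrays were so only in WT; of the 2 Ifnar1-/- IFNβ arrays, 1 was not well above background. The change with LPS was 6.46 (SE 1.36, adjusted p = 0.000841) in WT and 9.19 (SE 1.36, adjusted p = 0.000136) in Ifnar1-/-, or 87.8-fold and 582-fold. With IFNβ it was 5.56 (adjusted p = 0.00351), or 47.2-fold, in WT and −0.35 in Ifnar1-/-. The difference between the genotypes in the change with IFNβ was −5.91 (SE 1.93, adjusted p = 0.0378). It was −6.09 between the replicate 1 slides and −5.72 between the replicate 2 slides. This call was lost when any of 7 of the 8 arrays was left out (all but Ifnar1-/- IFNβ replicate 2), with values of −4.91 to −6.54.

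The array that went against its label widened the spread that entered the Cfb tests, since the Ifnar1-/- LPS + zVAD + Nec-1 arrays read 13.35 and 5.65. Without these 2 arrays the standard error for a change with treatment was 0.524 in place of 1.36. The untreated genotypes then differed by −4.21 (adjusted p = 3.39e-05, against 0.0618 with all arrays), and the difference between genotypes in the change with LPS was 2.73 (adjusted p = 0.0251, against 0.507). In cells given LPS the genotypes differed by −1.48 (adjusted p = 0.038, against 0.473), a far smaller gap than in untreated cells.

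C3, the component on which all pathways converge, moved as Cfb did over a smaller range of 5.46. Untreated WT arrays read 15.10 and 14.57, LPS arrays 16.82 and 17.29, and IFNβ arrays 16.43 and 17.34. Untreated Ifnar1-/- arrays read 11.65 and 11.74, LPS arrays 14.49 and 14.50, and IFNβ arrays 11.42 and 11.76. All WT arrays were above all Ifnar1-/- arrays of these treatments, and even the Ifnar1-/- LPS arrays stayed under the untreated WT ones. LPS raised C3 by 2.22 (SE 0.614, adjusted p = 0.00671) in WT and by 2.80 (adjusted p = 0.00244) in Ifnar1-/-. IFNβ raised it by 2.05 (adjusted p = 0.0134) in WT, a call lost without WT IFNβ replicate 2 (1.59) or WT untreated replicate 2 (1.78), and the latter array also decided the WT call with LPS (1.95 without it). The difference between genotypes in the change with IFNβ was −2.16 (SE 0.868, adjusted p = 0.0909). It passed with slide as a random block (adjusted p = 0.0414) but not as a fixed block (adjusted p = 0.0508), and it passed with the 2 Ifnar1-/- LPS + zVAD + Nec-1 arrays left out (adjusted p = 0.00708), and the other C3 probe gave −2.53 (adjusted p = 0.032).

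C4b encodes the classical pathway component C4. Its WT arrays read 6.28 and 7.21 untreated, 7.81 and 8.47 with LPS, and 10.89 and 10.94 with IFNβ. In Ifnar1-/- cells they read 5.46 and 5.84, 6.18 and 5.69, and 5.50 and 5.63. WT with IFNβ stood above all other groups, and the Ifnar1-/- values spanned little, with 1 of the 2 IFNβ arrays not well above background. IFNβ raised C4b by 4.17 (SE 0.358, adjusted p = 6.34e-08), or 18-fold, in WT, and the genotypes differed in this change by −4.25 (SE 0.507, adjusted p = 1.13e-05). LPS raised it by 1.40 (adjusted p = 0.00392) in WT, a call lost without WT LPS replicate 2 (1.06) or WT untreated replicate 1 (0.93). In Ifnar1-/- cells the change with LPS was 0.29 (adjusted p = 0.644), and the difference between genotypes in that change, −1.11, did not pass (adjusted p = 0.225). Whether the probe also reads the close paralog C4a was not checked.

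C2, which pairs with C4 in the classical enzyme, gave a similar order at a lower amplitude. Untreated WT arrays read 7.75 and 7.96, LPS arrays 9.52 and 9.53, and IFNβ arrays 9.86 and 9.94. The Ifnar1-/- arrays read 6.30 and 6.05, 6.85 and 6.89, and 6.33 and 6.38. No Ifnar1-/- array reached the untreated WT level. In WT, C2 rose by 1.67 (SE 0.269, adjusted p = 7.14e-05) with LPS and by 2.05 (adjusted p = 9.77e-06) with IFNβ. In Ifnar1-/- it changed by 0.69 (adjusted p = 0.0677; 0.00886 with slide as a block) with LPS. The genotypes differed by −1.87 (SE 0.381, adjusted p = 0.00183) in the change with IFNβ, and by −0.98 (adjusted p = 0.14; 0.0203 with slide as a block) in that with LPS.

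**Figure D2:**
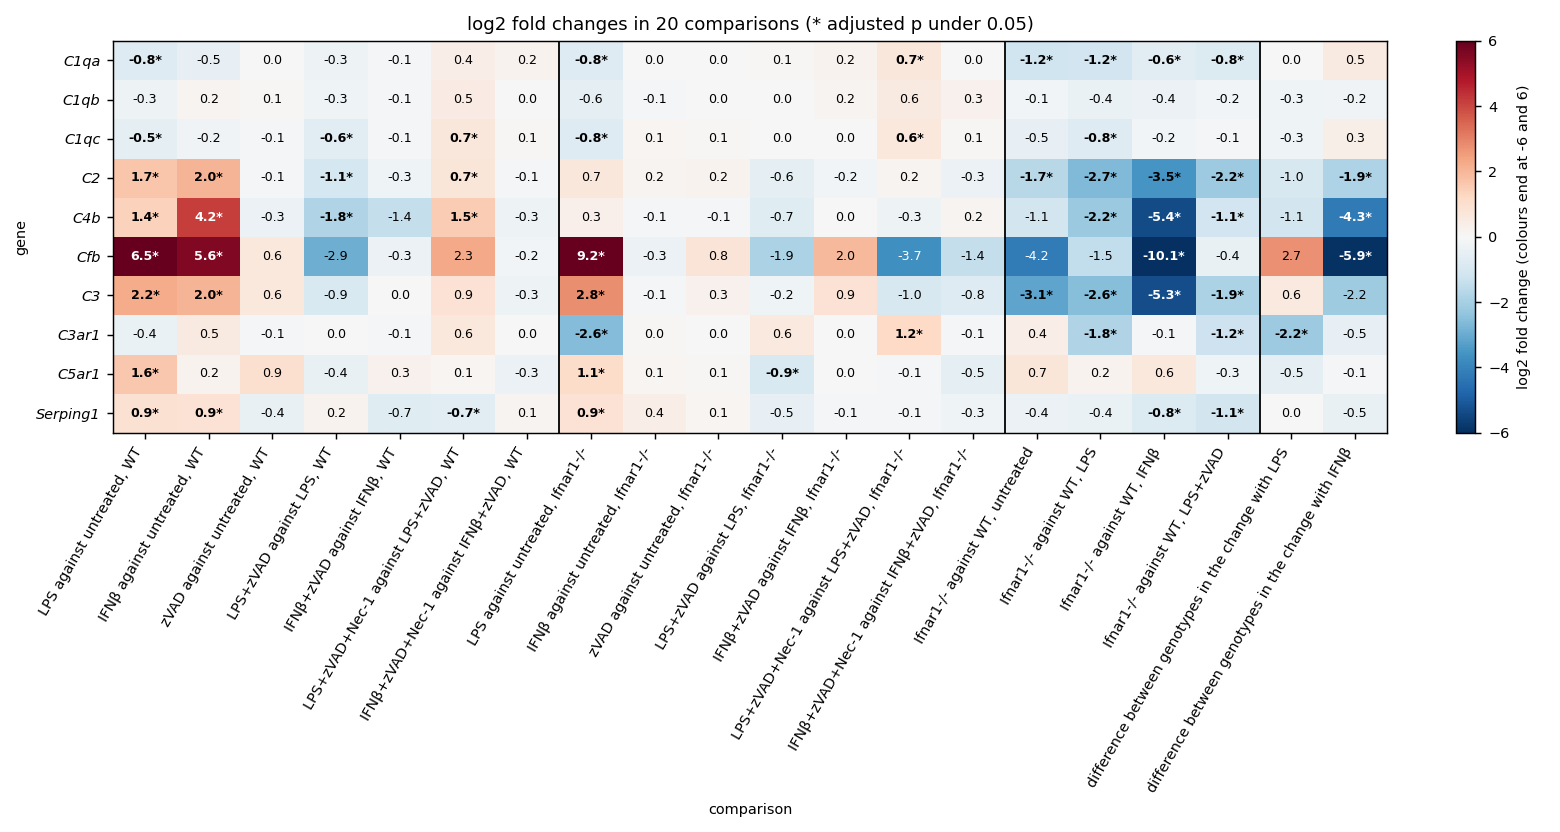
Log2 change of each complement gene (vertical axis) in the treatment and genotype comparisons (horizontal axis), coloured from lower to higher, with a mark on changes called at an adjusted p below 0.05 by limma. Cfb has the strongest colours, with 6.46 and 9.19 for LPS in WT and Ifnar1-/-, and the columns of Ifnar1-/- against WT hold no call in the higher direction.

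Of the C1q chains, C1qa and C1qc moved the other way with LPS. Untreated WT arrays of C1qa read 16.26 and 16.41 and LPS arrays 15.68 and 15.43, and in Ifnar1-/- they read 15.04 and 15.28 and then 14.29 and 14.49. The LPS arrays lay below the untreated ones in each genotype, by 0.78 (SE 0.231, adjusted p = 0.0106) in WT and 0.77 (adjusted p = 0.0191) in Ifnar1-/-. C1qc read 17.05 and 17.19 untreated and 16.69 and 16.49 with LPS in WT, and 16.57 and 16.65 and then 15.83 and 15.80 in Ifnar1-/-. It fell by 0.53 (SE 0.202, adjusted p = 0.0407) in WT, a call lost without any of the 4 arrays compared (−0.43 to −0.63), and by 0.80 (adjusted p = 0.00672) in Ifnar1-/-. C1qb, the third chain, had the narrowest range of the 10 genes, 0.92: it changed with LPS by −0.28 (adjusted p = 0.328) in WT and by −0.56 (adjusted p = 0.0706; 0.00641 with slide as a block) in Ifnar1-/-.

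The C1q calls with LPS depended on the scaling. With arrays scaled to their 75th percentile and not quantile normalized, the median change of all genes with LPS in WT moved from −0.0851 to 0.0741, C1qa changed by −0.19 and C1qc by −0.04 in WT, and by −0.39 and −0.44 in Ifnar1-/-, and none of the 4 passed. The C1qa call in WT was lost without WT LPS replicate 2 (−0.65) or WT untreated replicate 2 (−0.70), and that in Ifnar1-/- without LPS replicate 1 (−0.67) or untreated replicate 2 (−0.65). The C1qc call in Ifnar1-/- was lost without untreated replicate 2 (−0.76). With IFNβ, the WT change of C1qa was −0.50 (adjusted p = 0.0987; 0.0128 with slide as a block).

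The receptors behaved differently from each other. C3ar1, the receptor of C3a, read 14.12 on both untreated WT arrays and 13.82 and 13.66 with LPS. In Ifnar1-/- it read 14.34 and 14.70 untreated and 11.82 and 12.06 with LPS, the lowest group of the 16. The untreated genotypes were close and the LPS groups far apart. C3ar1 thus fell by 2.58 (SE 0.351, adjusted p = 7.99e-05), or 5.98-fold, in Ifnar1-/-, whereas the WT change of −0.38 did not pass (adjusted p = 0.429). The difference between the genotypes in this change was −2.20 (SE 0.497, adjusted p = 0.00981), with −2.22 between the replicate 1 slides and −2.18 between the replicate 2 slides. Here 3.75% of all genes were called in the lower direction, and C3ar1 was the 1 of 10. C2 passed as well with slide as a block, and Cfb passed in the higher direction with the 2 Ifnar1-/- LPS + zVAD + Nec-1 arrays left out. With IFNβ, WT C3ar1 changed by 0.52 (adjusted p = 0.277).

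C5ar1, the receptor of C5a, rose with LPS in each genotype. WT arrays read 12.45 and 12.49 untreated and 13.92 and 14.27 with LPS, and Ifnar1-/- arrays 13.26 and 13.17 and then 14.19 and 14.45. The LPS arrays of the genotypes overlapped. The change was 1.62 (SE 0.281, adjusted p = 0.000142) in WT and 1.101 (adjusted p = 0.00697) in Ifnar1-/-, the latter lost without Ifnar1-/- LPS replicate 2 (0.97) or untreated replicate 2 (1.05). IFNβ changed WT C5ar1 by 0.23, which did not pass. The WT arrays with zVAD read 13.14 and 13.69, 0.94 above the untreated mean, and this did not pass either (adjusted p = 0.474). Over zVAD alone none of the 10 genes was called in WT, where 0.00655% of all genes were called, or in Ifnar1-/-, where 0% were. C5ar1 in WT was the 1 gene with an unadjusted p under 0.05.

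Serping1, the inhibitor of the classical proteases, read 6.70 and 6.96 untreated, 7.52 and 7.97 with LPS and 7.91 and 7.53 with IFNβ in WT. In Ifnar1-/- it read 6.41 and 6.50, 7.29 and 7.40, and 6.85 and 6.90. It rose with LPS by 0.91 (SE 0.231, adjusted p = 0.00354) in WT and 0.88 (adjusted p = 0.00806) in Ifnar1-/-, and with IFNβ by 0.89 (adjusted p = 0.00532) in WT. Its other probe, well above background on 24 of the 32 arrays, gave 1.40, 1.25 and 1.31 with SE 0.871 and passed in no comparison. Of these calls, the WT call with LPS was lost without WT LPS replicate 2 (0.69), that in Ifnar1-/- without LPS replicate 2 (0.83) or untreated replicate 1 (0.84), and that with IFNβ without WT IFNβ replicate 1 (0.70) or untreated replicate 1 (0.76).

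**Figure D3:**
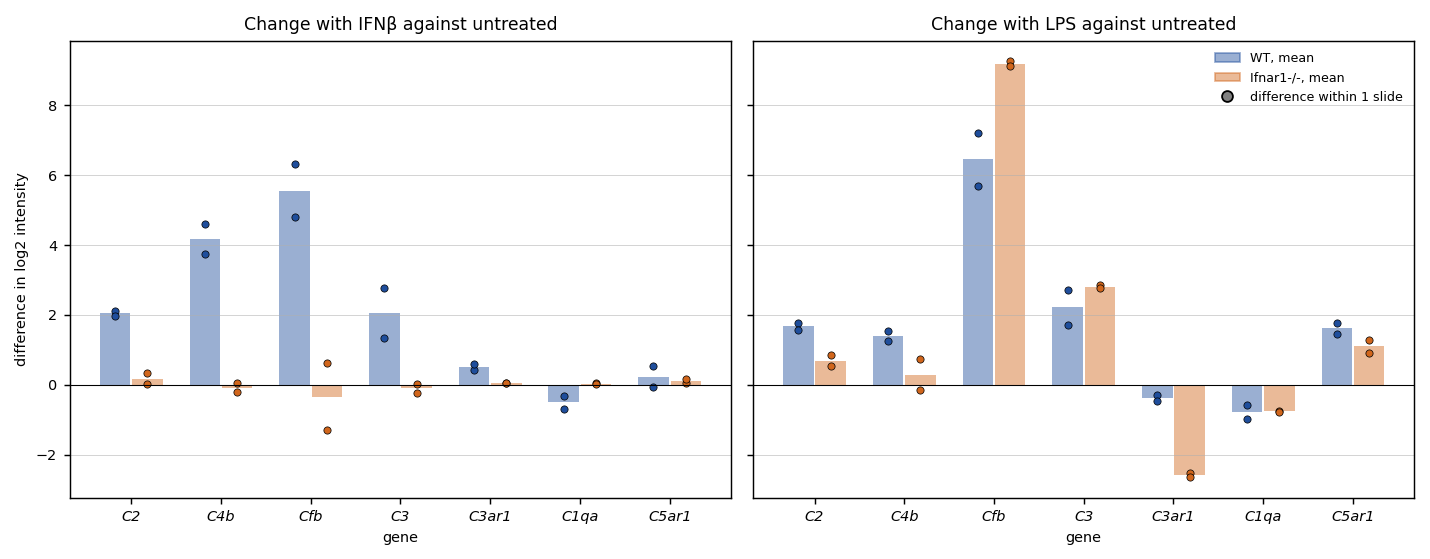
Change with IFNβ and with LPS (log2, vertical axis) of C2, C4b, Cfb, C3, C3ar1, C1qa and C5ar1 (horizontal axis) in WT and Ifnar1-/- cells. Points show each replicate slide and bars the mean of 2. The genotypes' points lie apart for several genes in each panel. The difference passed the test for Cfb, C4b and C2 under IFNβ and for C3ar1 under LPS, where the change was −0.38 in WT and −2.58 in Ifnar1-/-.

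Adding zVAD to LPS in WT cells, the stimulus of necroptosis, lowered C1qc, C2 and C4b, 3 of 10 genes where 22.3% of all genes fell, and raised none, where 13.1% rose. These counts were near the background. The median change of the 10 was −0.532, against −0.0392 over all genes. C4b went from 7.81 and 8.47 with LPS to 6.45 and 6.27 with zVAD added, a fall of 1.78 (SE 0.358, adjusted p = 0.000686), with the untreated arrays at 6.28 and 7.21. C2 went to 8.50 and 8.44, a fall of 1.06 (adjusted p = 0.00457), and C1qc to 16.24 and 15.67, a fall of 0.63 (adjusted p = 0.019) that was lost without WT LPS replicate 1 (−0.53) or WT LPS + zVAD replicate 2 (−0.35). Cfb read 14.28 and 13.01, below both LPS arrays, a change of −2.94 (adjusted p = 0.105; 0.000228 with the 2 Ifnar1-/- LPS + zVAD + Nec-1 arrays left out). C3, at 16.12 and 16.18, was also below both LPS arrays, without passing. With scaling to the 75th percentile, C4b alone of the 3 passed.

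The same genes were higher when Nec-1 was added. Against LPS + zVAD, C1qc, C2 and C4b rose in WT, 3 of 10 where 19.5% of all genes rose, and Serping1 fell, 1 of 10 where 10.0% fell. Both counts were again near the background. The median was 0.662 against 0.0246. C4b read 7.54 and 8.22 with Nec-1, a rise of 1.52 (adjusted p = 0.0032) lost without WT LPS + zVAD + Nec-1 replicate 2 (1.18). C2 read 9.20 on both arrays, a rise of 0.74 (adjusted p = 0.046), and Serping1 went from 7.94 and 8.00 to 7.25 and 7.37, a fall of 0.66 (adjusted p = 0.0376). These calls of C2 and Serping1 were each lost without any of the 4 arrays compared (0.71 to 0.76 and −0.60 to −0.72). C1qc read 16.70 and 16.56, a rise of 0.68 (adjusted p = 0.0155) lost without LPS + zVAD replicate 2 (0.39) or Nec-1 replicate 1 (0.61). Cfb read 15.81 and 15.997, 2.26 higher (adjusted p = 0.243; 0.00262 with the 2 Ifnar1-/- LPS + zVAD + Nec-1 arrays left out). With slide as a block, C1qa (0.41, adjusted p = 0.0439), C1qb (0.47, adjusted p = 0.0155) and C3ar1 (0.65, adjusted p = 0.0485) passed as well, in the higher direction. The share of all genes called with slide as a block is not given here. With scaling to the 75th percentile, C4b (1.28, adjusted p = 0.00589) kept its call and C1qc (0.22, adjusted p = 0.606), C2 (adjusted p = 0.217) and Serping1 (adjusted p = 0.0887) lost theirs. The comparisons with zVAD and with Nec-1 share the LPS + zVAD arrays, so their opposite signs are not independent.

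**Figure D4:**
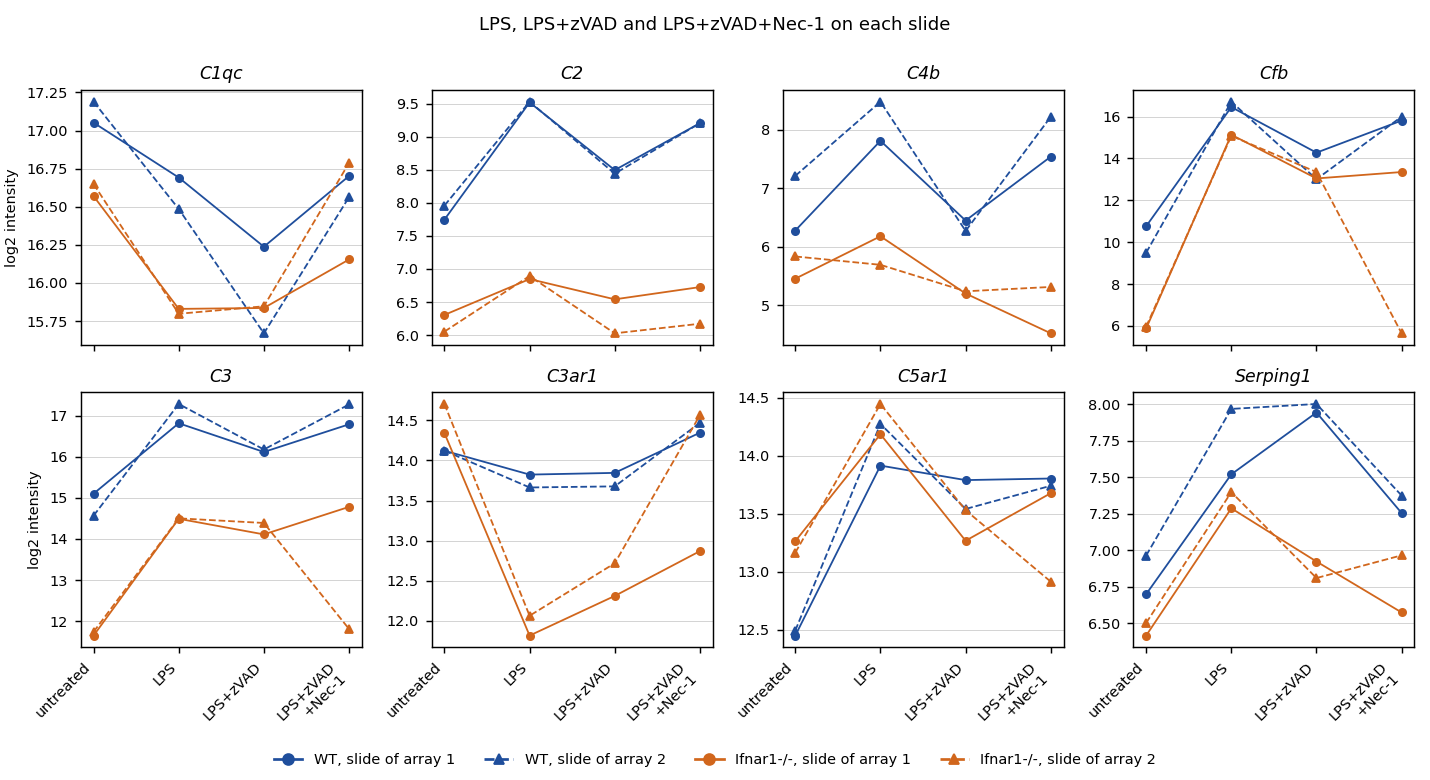
Log2 level of C1qc, C2, C4b, Cfb, C3, C3ar1, C5ar1 and Serping1 in untreated cells and with LPS, LPS + zVAD and LPS + zVAD + Nec-1. WT and Ifnar1-/- are in different colours, with 1 line for each replicate slide. In WT, C4b and Cfb are lower with zVAD than with LPS alone on both slides and higher with Nec-1 than with zVAD on both.

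With IFNβ in place of LPS, neither zVAD nor Nec-1 gave a call among the 10 genes in WT, where limma called 0% of all genes for each. C4b read 9.27 and 9.71 with IFNβ + zVAD, 1.43 below IFNβ alone on average and below both of its arrays (adjusted p = 0.457, unadjusted p = 0.000837), and Serping1 was 0.72 lower (adjusted p = 0.865, unadjusted p = 0.0055). These were the genes with an unadjusted p under 0.05 for zVAD; for Nec-1 there was none.

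In Ifnar1-/- cells, adding zVAD to LPS lowered C5ar1, 1 of 10 where 4.01% of all genes fell. It read 13.27 and 13.53, against 14.19 and 14.45 with LPS, a fall of 0.92 (adjusted p = 0.0485) that was lost without any of the 4 arrays (−0.79 to −1.05). C2 was 0.59 lower (adjusted p = 0.203; 0.0408 with slide as a block) and Cfb, at 13.05 and 13.35, was 1.91 lower (adjusted p = 0.471; 0.023 with the 2 Ifnar1-/- LPS + zVAD + Nec-1 arrays left out). C4b, low in this genotype, read 5.20 and 5.24 against 6.18 and 5.69 (adjusted p = 0.252). Whether the zVAD change differs between genotypes was not tested.

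The comparison of LPS + zVAD + Nec-1 with LPS + zVAD in Ifnar1-/- rests on the array that went against its label. As labelled, C1qa (0.68, adjusted p = 0.044), C1qc (0.63, adjusted p = 0.035) and C3ar1 (1.20, adjusted p = 0.0221) rose, 3 of 10 where 11.7% of all genes rose and 7.87% fell. Without replicate 2 none of the 10 passed, and the changes were 0.30, 0.31 and 0.35. The Cfb change of −3.70 (adjusted p = 0.0638; 0.0494 with slide as a block) became 0.15. For C3ar1, replicate 1 read 12.87, near the LPS + zVAD arrays at 12.31 and 12.72, and replicate 2 read 14.56, within the untreated arrays. With IFNβ in Ifnar1-/- cells, zVAD called none of the 10 genes, where 0.00655% of all genes were called, and Nec-1 none, where 1.59% were; in neither did a gene have an unadjusted p under 0.05.

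Between genotypes, every call among the 10 genes was lower in Ifnar1-/- in the fit of all arrays without a block. In untreated cells C1qa, C2 and C3 were lower, 3 of 10 where 3.42% of all genes were lower, with a median of −0.805 against 0.0123. C3 differed by −3.14 (SE 0.614, adjusted p = 0.00269), C2 by −1.67 (adjusted p = 0.000479) and C1qa by −1.18 (adjusted p = 0.00281). With the 2 Ifnar1-/- LPS + zVAD + Nec-1 arrays left out, Cfb and C4b (−1.098, adjusted p = 0.043) were called lower too. The share of all genes called without these 2 arrays is not given here. C5ar1 was 0.74 higher, which did not pass (adjusted p = 0.116). The genotype was measured on separate slides, and neutrophil and stromal marker sums moved with it, as given above.

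With LPS, 6 of 10 genes were lower in Ifnar1-/- where 10.1% of all genes were: C2 by −2.65 (adjusted p = 6.67e-07), C3 by −2.56, C4b by −2.21, C3ar1 by −1.80, C1qa by −1.16 and C1qc by −0.77. With IFNβ, 6 of 10 were lower where 16.1% of all genes were, and none higher where 28.3% were: Cfb by −10.11 (adjusted p = 7.96e-06), C4b by −5.35 (adjusted p = 1.14e-09), C3 by −5.30, C2 by −3.55, Serping1 by −0.84 and C1qa by −0.64. With LPS + zVAD, 6 of 10 were lower where 11.8% of all genes were, with C2 at −2.19 (adjusted p = 4.82e-06), C3 at −1.90, C3ar1 at −1.25, C4b at −1.14, Serping1 at −1.11 and C1qa at −0.80. The other Serping1 probe went the opposite way with LPS + zVAD (0.31) and gave −0.46 with IFNβ, neither passing, and with the mean of both probes the Serping1 calls were lost (−0.40, adjusted p = 0.519, with LPS + zVAD, and adjusted p = 0.258 with IFNβ). The medians of the 10 genes were −1.32, −0.743 and −0.955, and those of all genes 0.112, 0.192 and 0.151. C2, C3 and C1qa were called in all 4 genotype comparisons. The C3 call with LPS + zVAD was lost without any of the 4 arrays (−1.76 to −2.04), and that of C4b without 3 of them (−1.05 to −1.16, all but WT replicate 2). The C4b call with LPS + zVAD was also lost with normexp background correction (−0.51, adjusted p = 0.158) and with the authors' normalized table. Scaling to the 75th percentile moved C1qa to −1.22 with IFNβ and −1.42 with LPS + zVAD, and added calls of C1qb (−1.04) and C1qc (−0.87) with IFNβ, of C1qc (−0.77) with LPS + zVAD and of C4b (−1.33) in untreated cells, all lower in Ifnar1-/-. Of the smaller calls, C1qa with IFNβ was lost without 3 of the 4 arrays (−0.54 to −0.75, all but WT replicate 2), C1qa and C3ar1 with LPS + zVAD without replicate 1 of either genotype (−0.64 and −0.65; −1.04 and −1.16), C1qc with LPS without WT replicate 1 (−0.67), and Serping1 with IFNβ without WT replicate 1 (−0.65).

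Of the differences between genotypes in the change with IFNβ, 3 of 10 passed in the lower direction (C2, C4b and Cfb), where 8.73% of all genes did, and none in the higher, where 10.7% did. C4b and C2 supply the classical C3-cleaving enzyme and Cfb the alternative one. With LPS, the difference passed for C3ar1 alone, or for C3ar1 and C2 with slide as a block. With the 2 Ifnar1-/- LPS + zVAD + Nec-1 arrays left out, Cfb passed beside C3ar1, in the higher direction (2.73, adjusted p = 0.0251).

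Of the activation genes, C3 and C2 kept WT and Ifnar1-/- apart in the remaining groups. Cfb did so with zVAD alone and with IFNβ + zVAD, without or with Nec-1. With LPS + zVAD the Cfb arrays of the genotypes overlapped, and the difference of −0.44 was not called. WT arrays of Cfb read 10.80 and 10.72 with zVAD, 15.15 and 15.52 with IFNβ + zVAD and 14.94 and 15.38 with IFNβ + zVAD + Nec-1. Those of Ifnar1-/- read 7.06 and 6.31 with zVAD, 7.59 and 7.47 with IFNβ + zVAD and 5.62 and 6.58 with IFNβ + zVAD + Nec-1. The WT groups given IFNβ thus stayed high with zVAD, and with zVAD and Nec-1, and all of these Ifnar1-/- arrays lay below all of these WT arrays. For C3 the WT values were 15.21 and 15.70 with zVAD, 16.26 and 17.49 with IFNβ + zVAD, 16.03 and 17.08 with IFNβ + zVAD + Nec-1 and 16.79 and 17.27 with LPS + zVAD + Nec-1. In Ifnar1-/- they were 12.06 and 11.87 with zVAD, 12.50 and 12.39 with IFNβ + zVAD, 11.48 and 11.82 with IFNβ + zVAD + Nec-1, 14.11 and 14.39 with LPS + zVAD and 14.78 and 11.81 with LPS + zVAD + Nec-1. The array that went against its label, the second of the last pair, read close to the untreated Ifnar1-/- arrays. C4b in WT read 6.25 and 6.58 with zVAD and 8.96 and 9.40 with IFNβ + zVAD + Nec-1. In Ifnar1-/- C4b read 5.68 and 5.39 with zVAD, 5.42 and 5.70 with IFNβ + zVAD, 5.27 and 6.21 with IFNβ + zVAD + Nec-1 and 4.52 and 5.32 with LPS + zVAD + Nec-1. No Ifnar1-/- group reached the WT IFNβ groups, and neither of the Ifnar1-/- LPS + zVAD + Nec-1 arrays was well above background. C2 in WT read 7.66 and 7.83 with zVAD, 9.61 and 9.64 with IFNβ + zVAD and 9.52 and 9.57 with IFNβ + zVAD + Nec-1. In Ifnar1-/- C2 read 6.50 and 6.27 with zVAD, 6.52 and 5.86 with IFNβ + zVAD, 6.37 and 5.32 with IFNβ + zVAD + Nec-1, 6.54 and 6.03 with LPS + zVAD and 6.73 and 6.17 with LPS + zVAD + Nec-1. All of these C2 values in Ifnar1-/- lay under the untreated WT arrays.

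For the C1q chains the remaining groups lay closer together. C1qa in WT read 16.26 and 16.36 with zVAD, 15.92 and 15.47 with IFNβ + zVAD, 16.09 and 15.71 with IFNβ + zVAD + Nec-1, 15.40 and 15.10 with LPS + zVAD, 15.77 and 15.54 with LPS + zVAD + Nec-1 and 15.94 and 15.72 with IFNβ. In Ifnar1-/- C1qa read 15.06 and 15.25 with zVAD, 15.35 and 15.45 with IFNβ + zVAD, 15.28 and 15.59 with IFNβ + zVAD + Nec-1, 14.29 and 14.61 with LPS + zVAD, 14.75 and 15.51 with LPS + zVAD + Nec-1 and 15.08 and 15.29 with IFNβ. Its LPS + zVAD arrays were the lowest of these in each genotype. C1qb in WT read 16.71 on both arrays untreated, 16.55 and 16.31 with LPS, 16.89 and 16.84 with IFNβ, 16.76 and 16.78 with zVAD, 16.93 and 16.68 with IFNβ + zVAD, 16.82 and 16.73 with IFNβ + zVAD + Nec-1, 16.26 and 16.04 with LPS + zVAD and 16.71 and 16.54 with LPS + zVAD + Nec-1. In Ifnar1-/- C1qb read 16.48 and 16.65 untreated, 15.86 and 16.15 with LPS, 16.31 and 16.67 with IFNβ, 16.49 and 16.65 with zVAD, 16.55 and 16.76 with IFNβ + zVAD, 16.85 and 16.98 with IFNβ + zVAD + Nec-1, 15.88 and 16.11 with LPS + zVAD and 16.11 and 17.00 with LPS + zVAD + Nec-1. The LPS and LPS + zVAD groups had the lowest C1qb means in Ifnar1-/-. C1qc in WT read 16.99 and 16.80 with IFNβ, 16.99 and 17.03 with zVAD, 16.97 and 16.56 with IFNβ + zVAD and 17.02 and 16.69 with IFNβ + zVAD + Nec-1. In Ifnar1-/- C1qc read 16.70 and 16.74 with IFNβ, 16.65 and 16.72 with zVAD, 16.73 and 16.75 with IFNβ + zVAD, 16.84 and 16.82 with IFNβ + zVAD + Nec-1, 15.84 and 15.85 with LPS + zVAD and 16.15 and 16.79 with LPS + zVAD + Nec-1. The lowest of these C1qc groups in Ifnar1-/- was again LPS + zVAD.

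Of the receptors and the inhibitor, C3ar1 lay near its untreated level in the Ifnar1-/- groups without LPS. C3ar1 in WT read 14.55 and 14.73 with IFNβ, 14.19 and 13.92 with zVAD, 14.70 and 14.31 with IFNβ + zVAD, 14.71 and 14.35 with IFNβ + zVAD + Nec-1, 13.84 and 13.68 with LPS + zVAD and 14.34 and 14.47 with LPS + zVAD + Nec-1. In Ifnar1-/- C3ar1 read 14.38 and 14.76 with IFNβ, 14.39 and 14.73 with zVAD, 14.36 and 14.74 with IFNβ + zVAD and 14.25 and 14.59 with IFNβ + zVAD + Nec-1. The Ifnar1-/- arrays that carried LPS were lower, apart from the array that went against its label. C5ar1 in WT read 12.39 and 13.02 with IFNβ, 12.79 and 13.13 with IFNβ + zVAD, 12.20 and 13.06 with IFNβ + zVAD + Nec-1, 13.79 and 13.54 with LPS + zVAD and 13.80 and 13.74 with LPS + zVAD + Nec-1. In Ifnar1-/- C5ar1 read 13.31 and 13.33 with IFNβ, 13.17 and 13.36 with zVAD, 13.37 and 13.23 with IFNβ + zVAD, 12.75 on both arrays with IFNβ + zVAD + Nec-1 and 13.68 and 12.92 with LPS + zVAD + Nec-1. Its WT groups with LPS lay above its WT groups with IFNβ. Serping1 in WT read 6.70 and 6.07 with zVAD, 7.22 and 6.77 with IFNβ + zVAD and 7.30 and 6.98 with IFNβ + zVAD + Nec-1. In Ifnar1-/- Serping1 read 6.43 and 6.73 with zVAD, 6.94 and 6.61 with IFNβ + zVAD, 6.65 and 6.39 with IFNβ + zVAD + Nec-1, 6.92 and 6.81 with LPS + zVAD and 6.57 and 6.96 with LPS + zVAD + Nec-1. Its WT arrays with IFNβ + zVAD were below both arrays with IFNβ alone.

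Ordered by group mean, neighbouring groups mostly overlapped. Of the 15 neighbouring pairs, 14 overlapped for Serping1, 13 for each C1q chain, 12 for C5ar1, 11 for C3ar1, 10 for Cfb and C4b, 9 for C3 and 8 for C2. C2 thus had the fewest overlapping pairs of the 10 genes, and how many pairs overlap over all genes was not counted. Its order began with WT IFNβ and ended with Ifnar1-/- IFNβ + zVAD + Nec-1, with all WT groups above all Ifnar1-/- groups. C3 followed the same split at its top, all 8 WT groups lying above all Ifnar1-/- groups. For C3ar1 the 2 lowest groups were Ifnar1-/- LPS + zVAD and Ifnar1-/- LPS.

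Across the 16 group means, which share slides, C2 and C3 had a Pearson correlation of 0.935, Cfb and C3 0.94, C2 and C4b 0.915, and C1qb and C1qc 0.929, while C1qb and C5ar1 had −0.706. The genes whose means were most like a member, over the same 16 groups, were Gbp2 for Cfb (0.984), Ifi203 for C3 (0.987), Flt1 for C4b (0.987), Zfp260 for C1qa (0.942), Itm2b for C1qb (0.951), Spg11 for C1qc (0.958), Rab19 for C3ar1 (0.937), Stx6 for C5ar1 (0.945) and Ghrh for Serping1 (0.903). Among the 3 most like C2 were Uba7 (0.989) and Tcstv3 (0.989). For the other members the next 2 were Aoah (0.983) and Gbp5 (0.982) for Cfb, H2-Q5 (0.987) and Zbp1 (0.986) for C3, Atp13a1 (0.982) and Fbrsl1 (0.976) for C4b, Scarb2 (0.934) and Slc26a1 (0.932) for C1qa, Id3 (0.949) and Apobec1 (0.93) for C1qb, Msrb1 (0.956) and Itm2b (0.95) for C1qc, Mcm6 (0.924) and Peak1 (0.914) for C3ar1, Trim36 (0.927) and Cyp51 (0.925) for C5ar1, and Gm15217 (0.901) and C1rb (0.892) for Serping1. Gbp2 encodes a guanylate-binding protein and Ifi203 an interferon-activated gene product. These values are descriptions of 16 points and carry no test.

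The promoter sequences of C1qb, C1qc, C3, C3ar1 and C5ar1 were in the RefSeq set (GRCm38.p6), as windows from 250 bases before to 50 bases after the start site, and were searched on both strands for GAAANNGAAA (the interferon-stimulated response element, ISRE), TTCNNNGAA (the gamma-activated sequence, GAS) and the NF-kB motif by its name. Promoters of C1qa, C2, Cfb, C4b and Serping1 were not in the set and were not searched. The 1 match in those searched was an NF-kB motif in C1qc, 41 to 32 bases before the start. It is shown with 10 bases on each side and the match in capitals because C1qc fell with LPS.
C1qc: tgtgggggagGGGGCTCTCCctgctctggg
Of 32851 promoters, 3.44% held the ISRE letters, 8.3% the GAS letters and 8.46% the NF-kB motif. A match describes letters and is not a binding site.

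Of 47 other complement genes taken as a list, 46 were on the array and 31 were tested; LPS in WT raised 2 and lowered 6, IFNβ in WT raised 2 and lowered 6, and LPS in Ifnar1-/- raised 4 and lowered 3. Over all genes the shares higher and lower were 16.7% and 25.5%, 14.0% and 22.2%, and 11.5% and 14.5%, so these counts were near or below the background. C1ra and C1rb, proteases of the C1 complex, rose with LPS in WT by 2.39 (adjusted p = 1.18e-05) and 2.24, and both rose with IFNβ, and their IFNβ changes differed between genotypes by −1.84 (adjusted p = 0.00768) and −2.02 (adjusted p = 0.00912). C1ra followed C4b through zVAD and Nec-1 in WT, with −2.08 and 1.37. C1rb did not, with 0.16 (adjusted p = 0.794) and −0.66 (adjusted p = 0.192). C5ar2, the other C5a receptor, fell with LPS in WT (−2.72, adjusted p = 0.00266), where C5ar1 rose. When zVAD was added C5ar2 rose (2.68, adjusted p = 0.00359), and C5ar1 changed by −0.43 without passing (adjusted p = 0.268). C1s2 rose with LPS in Ifnar1-/- (2.54, adjusted p = 0.0373). Cd93 fell with LPS in each genotype, with changes of −2.20 in WT and −2.46 in Ifnar1-/-. Adding zVAD to LPS in WT raised 3 of the 31 and lowered 2 (13.1% and 22.3% of all genes), and adding Nec-1 raised 1 and lowered 1 (19.5% and 10.0%). Ifnar1-/- cells were higher than WT for 2, 5, 6 and 4 of the 31 when untreated, with LPS, with IFNβ and with LPS + zVAD, and lower for 1, 2, 4 and 5. Over all genes 5.7%, 19.1%, 28.3% and 26.8% were higher and 3.42%, 10.1%, 16.1% and 11.8% lower. Itgax, a chain of complement receptor 4, was higher in all 4, by 2.96, 2.58, 3.14 and 2.43.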

How the data were processed

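RNA from 32 BMDM samples was labelled with Cy3 and hybridised to single-colour Agilent arrays. The authors deposited scanner intensity values from Feature Extraction 11.5.1.1 (mm9 probe positions), with background subtracted within each array, and a table of normalized log2 values, which was made with limma per the labels (no version given) and is used here as an alternative. The number of arrays limits the precision.

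Here the deposited processed signals were log2 transformed, outlier spots were set to missing, and arrays were quantile normalized. Probes well above background on at least 50% of arrays were kept (20677 of 31378 named probes), and the brightest probe stood for each gene. limma 3.58.1 in R 4.3.3 fitted 16 group means (16 residual degrees of freedom), with Benjamini-Hochberg adjustment over 15269 genes and calls at an adjusted p of 0.05. In all, 20 comparisons were made: 14 of treatments, 4 of genotypes and 2 of the difference between genotypes in a change. The fit was tested on simulated data in which each array varied on its own, so spread shared by a slide was not simulated.

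Deviations of same-numbered arrays from their group means correlated within genotype, which share a slide (0.31 to 0.671 over 28 WT pairs, 0.158 to 0.574 over 28 Ifnar1-/- pairs), and less between genotypes (−0.0137 to 0.329 over 64 pairs). Slide was therefore tried as a block; a fixed slide block absorbs the genotype's slide spread, so for genotypes a random block was used, which changed no genotype call.

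The members and lists were chosen with earlier results of these data known. For each member the 3 genes with the highest correlation over the group means were named, apart from 1 that is not reported here. For other complement genes, those called with a log2 change of at least 2 in any comparison were named. Alternatives were the 75th percentile scaling, normexp background correction (offset 50), other filters on dim probes, the mean over a gene's probes, the arrays compared alone, a robust variance trend, slide and replicate blocks, the authors' table, and leaving out each array.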

Additional observations from a re-analysis of the deposited data

Results flagged for a closer look

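The difference between the genotypes in a change with treatment passed the test for 4 results, each the Ifnar1-/- change minus the WT change on the log2 scale. For IFNβ these were C2 at −1.87, C4b at −4.25 and Cfb at −5.91, and for LPS it was C3ar1 at −2.20. Each had the same sign on the replicate 1 and the replicate 2 slides, and C2, C4b and C3ar1 passed in all 20 alternatives run, while Cfb passed in 12 of 20.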

How the results depend on the processing

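Of 56 called pairs of gene and comparison, 26 kept their call in all alternatives. The counts of the 10 genes called moved as follows. They mix directions and are not set against the shares of all genes called in the same alternatives, which moved too. For LPS in WT, 8 became 4 with only the arrays compared. For LPS + zVAD against LPS in WT, 3 became 1 with the 75th percentile. For LPS + zVAD + Nec-1 against LPS + zVAD in WT, 4 became 1 with the 75th percentile, 2 with no filter or a robust variance trend, 0 with only the arrays compared, and 7 with slide as a fixed block or with the 2 Ifnar1-/- LPS + zVAD + Nec-1 arrays left out. In Ifnar1-/-, the 1 gene with zVAD became 0 with the 75th percentile, normexp, both other filters and the authors' table, and 2 with only the arrays compared, without those 2 arrays, or with slide as a fixed or random block. The 3 with Nec-1 became 1 with the 75th percentile, no filter or the authors' table, 0 with only the arrays compared, and 5 with slide as a fixed or random block. With the 75th percentile all 3 lost their calls, and the 1 was Cfb, in the lower direction (−4.00, adjusted p = 0.0464). Cfb, lower, was also among the 5 with a slide block. The 3 for untreated genotypes became 5 without those 2 arrays or with the replicate block, and 7 with slide as a fixed block. With the fixed block C5ar1 was called higher in Ifnar1-/-, untreated (0.74, adjusted p = 0.0399) and with IFNβ (0.62, adjusted p = 0.04). A fixed block absorbs the slide spread that a genotype comparison has to include, so its genotype calls are not relied on. With slide as a random block C5ar1 passed in neither (adjusted p = 0.152 and 0.11), and no genotype call changed. The 1 for the difference in the LPS change became 2 with normexp, only the arrays compared, without those 2 arrays, or either slide block. Treating the replicate number as a block changed no other count by over 1.5 times.

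Leaving out each array in turn gave 4 to 7 for LPS and 4 for IFNβ in WT, 2 to 3 for zVAD and 1 to 2 for Nec-1 with LPS in WT, 4 to 6 for LPS, 0 for zVAD and 0 to 6 for Nec-1 with LPS in Ifnar1-/-, 3 to 4, 5 to 6, 4 to 7 and 2 to 5 for the genotypes untreated, with LPS, with IFNβ and with LPS + zVAD, and 1 and 2 to 3 for the differences in the LPS and IFNβ change. The lone array of a group was then assumed to vary like the other groups. Cfb reversed, from −3.70 to 0.15, for Nec-1 in Ifnar1-/- without replicate 2, and was −7.55 without replicate 1.

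With the 75th percentile, the called genes that were higher in all genes went from 2556 of 6447 to 2930 of 5827 for LPS in WT, from 2139 of 5532 to 2312 of 4604 for IFNβ in WT, from 4321 of 6777 to 2992 of 5877 for the genotypes with IFNβ, from 2914 of 4455 to 2103 of 3796 with LPS, from 4092 of 5892 to 3093 of 5369 with LPS + zVAD, from 1791 of 2993 to 1002 of 2346 for Nec-1 with LPS in Ifnar1-/-, from 1752 of 3965 to 1867 of 3447 for LPS in Ifnar1-/-, and from 1639 of 2972 to 1014 of 2450 for the difference in the IFNβ change. The share of probes above background was 54.9 to 78.1% in WT and 44.5 to 61.6% in Ifnar1-/-. The probes of Cfb and C4b were not above background on all arrays, which limits the low values of these genes.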
